A study of Mus musculus with 6 samples.

Results

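The 10 genes described here encode the surfactant proteins of the lung and the transporters, enzymes and transcription factor of alveolar type 2 cells, and they were taken by symbol from a table of 24402 loci. They are *Sftpa1*, *Sftpb*, *Sftpc*, *Sftpd*, *Abca3*, *Lamp3*, *Lpcat1*, *Napsa*, *Slc34a2* and *Cebpa*, and all 10 had a locus that carried no other symbol. RNA was extracted from whole lungs of C57BL/6 mouse embryos at 12.5 *dpc* (days post coitus) and sequenced as 3 control libraries, from wild-type embryos, and 3 *Yap* mutant libraries, from Yap-flox/flox; Shh-Cre/+ embryos. In the mutants, Cre produced from the *Shh* locus removes *Yap* from the lung epithelium, while the surrounding mesenchyme keeps it and the second copy of *Shh* stays intact. The question addressed is how these genes stood in lungs that lack epithelial YAP, the transcriptional coactivator that the Hippo pathway restrains. For each locus the deposited tables give 1 FPKM value (a fragment count scaled to transcript length and to library size) for each genotype, pooled over its libraries. These values therefore carry no spread between libraries and no standard deviation, and no difference below was tested here. The authors' own fold changes and p-values are also given there and were not used. A locus is called higher or lower here when its pooled values differed by at least 1.5-fold after 0.1 FPKM was added to each, and their mean FPKM was 1 or more. Loci with such a mean are termed expressed below, and the call describes size only.

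Surfactant is a film of phospholipid and protein that lowers surface tension at the air-liquid boundary of the lung. Type 2 cells make it, store it in lamellar bodies and release it into the air space. At the stage sampled here the lung is still a branching tree of epithelial buds, and the distal tip cells that express *Sftpc* are progenitors of type 1 as well as type 2 cells. NKX2-1, forkhead and C/EBP factors are known activators of surfactant genes, and YAP acts on DNA through TEAD factors.

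Of the 10 genes, 7 were expressed, and 6 of these were at least 1.5-fold higher in *Yap* mutant than in control lungs. These 6 were *Sftpb*, *Sftpa1*, *Lamp3*, *Cebpa*, *Sftpc* and *Abca3*. Among all 12716 expressed loci, 565 (4.44%) were higher by that fold and 420 (3.3%) were lower. These shares belong beside every count of higher or lower genes given below for a list. None (0) of the 7 genes was lower. *Lamp3* reached the mean through its mutant value alone, so the count was also taken over genes whose control value alone was 1 FPKM or more, a limit set after the values were seen. Of 6 such genes 5 were higher, beside 3.22% of the 12634 loci that met the same limit. At 2-fold, 4 of the 7 genes were higher (2.15% of all loci), since *Sftpc* and *Abca3* lay just below that line. The median log2 ratio of the 7 genes was 1.71, while that of all 12716 loci was -0.01. The 3 remaining genes, *Slc34a2*, *Napsa* and *Sftpd*, had a mean under 1 FPKM and were left out of these counts. Because whole lungs were used, more cells of a type and more RNA per cell cannot be told apart in any of these values.

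**Figure D1:**
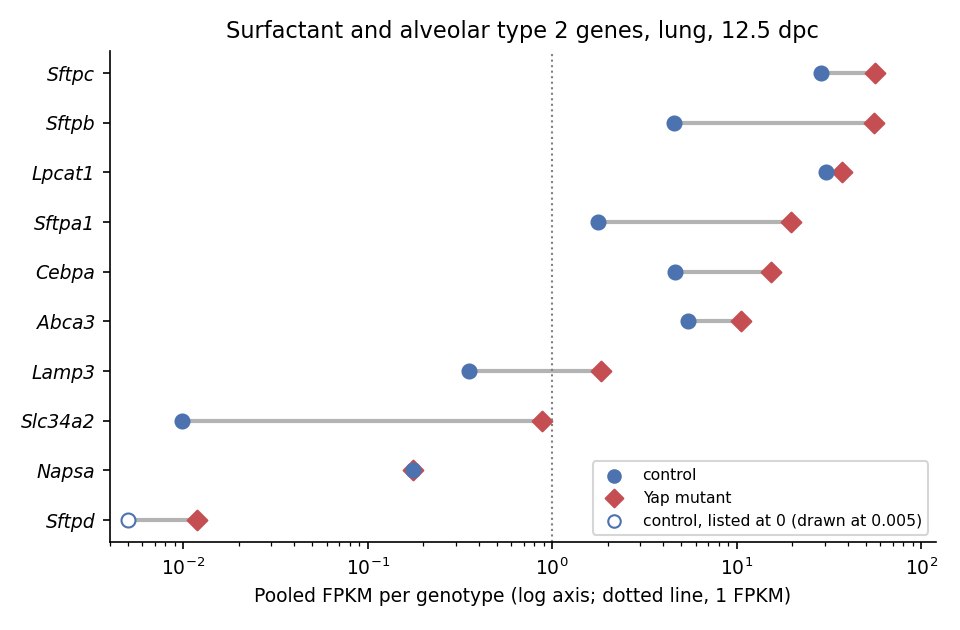
Pooled FPKM of the 10 genes in control (circles) and *Yap* mutant lungs (diamonds) on a log axis, with a grey line joining the values of a gene. *Sftpb* and *Sftpa1* show the widest gaps among genes above 1 FPKM, at 4.55 against 55.1 and 1.76 against 19.7 FPKM, while *Napsa* is at 0.176 FPKM in both and *Sftpd* is listed at 0 in control lungs.

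*Sftpb* encodes surfactant protein B, a small hydrophobic protein that spreads phospholipid into the surface film and is required for breathing at birth. Its locus lies on chromosome 6 from 72303248 to 72314421 on the plus strand of mm10 (GRCm38), and its longest annotated coding transcript has 11 exons. It had 4.55 FPKM in controls and 55.1 FPKM in mutants. The log2 ratio was 3.57, or 11.9-fold on the log2(FPKM + 0.1) scale used for every ratio here, which ranked 23 from the top among the 12716 loci. By level, *Sftpb* stood at rank 9721 of 24402 loci in control lungs and at rank 1524 in the mutants.

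*Sftpc* encodes surfactant protein C, the other hydrophobic protein of the film, whose transcript marks the distal lung epithelium from the start of branching. The gene lies on the minus strand of chromosome 14 from 70520942 to 70524081 and has 6 exons. It was the most abundant surfactant protein transcript in control lungs, at 28.4 FPKM, and had 55.8 FPKM in *Yap* mutant lungs. The log2 ratio was 0.97 (1.96-fold), so the gap was far smaller than that of *Sftpb*. The values of *Sftpc* and *Sftpb* were 6.25 to 1 in control lungs and 1.01 to 1 in the mutants.

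The collectins SP-A and SP-D bind sugars on microbes and take part in innate defence in the air space. *Sftpa1*, which encodes SP-A, lies on the plus strand of chromosome 14 from 41131788 to 41140357 and had 1.76 FPKM in controls and 19.7 FPKM in mutants. This is a log2 ratio of 3.41 (10.6-fold), rank 30 of the 12716 loci. *Sftpb* stood at 2.58 times *Sftpa1* in control lungs and at 2.80 times in the mutants, a nearly equal proportion. *Sftpd*, which encodes SP-D, lies on the same chromosome from 41172212 to 41185198. It was listed at 0 in control lungs and at 0.0118 FPKM in *Yap* mutant lungs. *Sftpa1* was thus among the largest ratios. Its close neighbour *Sftpd* lay at the lower edge of what these libraries could show, so the ratios of the 2 genes cannot be compared.

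**Figure D2:**
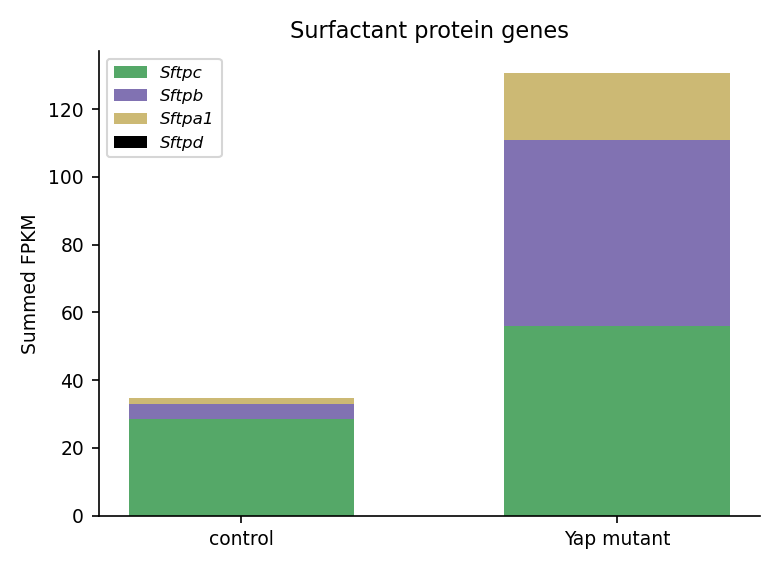
Stacked bars of the pooled FPKM of the surfactant protein genes in control and *Yap* mutant lungs, from 0. The sum is 34.7 FPKM in controls and 130.7 FPKM in mutants, with *Sftpc* at 81.8% of it in control and 42.7% in mutant lungs, and *Sftpd* is too low to be seen.

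Summed over the surfactant protein genes, the values were 34.7 FPKM in controls and 130.7 FPKM in mutants. The make-up of that sum differed as well as its size. *Sftpb* supplied 13.1% of it in control lungs and 42.2% in the mutants, and *Sftpa1* supplied 5.07% and 15.1%. The share of *Sftpc* was 81.8% in control and 42.7% in mutant lungs.

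Lamellar bodies are lysosome-related organelles, and ABCA3 is the transporter that carries phospholipid across their limiting membrane. *Abca3*, on the plus strand of chromosome 17 from 24352046 to 24414513, had 5.43 FPKM in controls and 10.6 FPKM in mutants, a log2 ratio of 0.95 (1.94-fold). A noncoding gene on the opposite strand, *D330041H03Rik*, overlaps its locus by 9865 bases and shares its coordinates in the table. That gene had 3.15 and 6.27 FPKM, a log2 ratio of 0.97. The libraries were stranded, but the strand setting used in counting is not given in the sources used here, so reads of the 2 genes may not be fully separated. *Lamp3* encodes a lysosome-associated membrane protein found in lamellar bodies and in mature dendritic cells. It lies on the minus strand of chromosome 16 from 19653381 to 19706387 and was low, at 0.353 FPKM in controls and 1.83 FPKM in mutants. The log2 ratio of *Lamp3* was 2.09 with a pseudocount of 0.1 FPKM and 1.06 with 1 FPKM.

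*Cebpa* encodes C/EBP alpha, a transcription factor needed for the maturation of type 2 cells and also active in liver, fat and myeloid cells. It has a single exon, on the plus strand of chromosome 7 from 35119293 to 35121931. It had 4.62 FPKM in controls and 15.3 FPKM in mutants, a log2 ratio of 1.71 (3.27-fold) and rank 129 of the 12716 loci. An antisense gene that the annotation names *Gm45091* overlaps the first 313 bases of its locus. Summed over 11 myeloid and dendritic markers, the values were 32.6 and 35.3 FPKM, and over 10 liver markers they were 14.4 and 60.6 FPKM. Most of the liver sum in mutants came from *Afp* (22.3 FPKM), *Trf* (19.2 FPKM) and *Ttr* (13.5 FPKM). *Alb* was near level, at 1.28 and 1.14 FPKM. The part of these tissues in the *Cebpa* value was not tested.

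*Lpcat1* encodes the acyltransferase that remodels phosphatidylcholine into the saturated form found in surfactant, and many other tissues express it too. Its locus on chromosome 13 runs from 73467197 to 73516544. It was the most abundant of the 10 genes in control lungs, at 30.4 FPKM, and had 37.4 FPKM in *Yap* mutant lungs. The log2 ratio of 0.30 (1.23-fold) did not reach the 1.5-fold line.

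*Slc34a2*, *Napsa* and *Sftpd* stayed under 1 FPKM in both genotypes. *Slc34a2* encodes the sodium-phosphate cotransporter of type 2 cells, on the plus strand of chromosome 5 from 53049353 to 53071663. It had 0.00983 FPKM in controls and 0.879 FPKM in mutants. The smallest values of the tables fell near a common step once multiplied by transcript length, which allows a rough estimate of the number of fragments behind a low value. On that estimate *Slc34a2* rested on about 2 fragments over the control libraries and about 176 over the mutant libraries. *Napsa* encodes napsin A, an aspartic protease that helps to process surfactant protein B, on chromosome 7 from 44572445 to 44586846. It had 0.176 FPKM in each genotype, about 13 fragments in each, and its locus is overlapped by the antisense gene *Gm15396*. *Sftpd* rested on about 1 fragment in the mutants, so no difference was detectable at this depth. With so few fragments no fold is given for *Sftpd* and *Napsa*, and that of *Slc34a2* depends on the pseudocount, with log2 ratios from 0.90 at 1 FPKM to 5.49 at 0.01 FPKM.

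**Figure D3:**
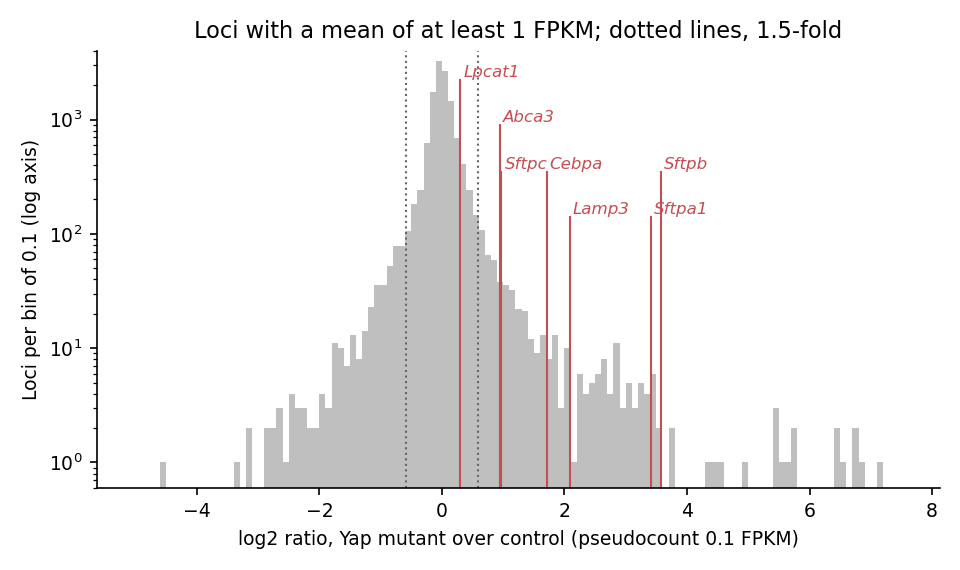
Histogram of the log2 ratio of *Yap* mutant over control values for the 12716 expressed loci (mean FPKM of 1 or more), with the count of loci on a log axis and the 7 expressed genes marked by red lines. *Lpcat1* (0.30) lies inside the 1.5-fold lines, *Abca3* (0.95) and *Sftpc* (0.97) lie beyond them, and *Sftpa1* (3.41) and *Sftpb* (3.57) lie in the far right tail.

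The promoters of these genes were read for short words bound by factors named above. RefSeq promoter sequences on GRCm38.p6 were at hand for 7 of the 10 genes (*Sftpa1*, *Sftpb*, *Abca3*, *Lamp3*, *Lpcat1*, *Slc34a2* and *Cebpa*). The 250 bases before the RefSeq start of transcription, which for *Sftpb* lies inside the locus given above, were searched on both strands for GGAATG (TEAD), CTCAAG (NKX2-1), TGTTTNC (forkhead) and TTNCNNAA (C/EBP). A match describes letters only, and does not show that a factor binds there. *Sftpb* (chr6:72304360-72304609, plus strand) and *Sftpa1* (chr14:41131538-41131787, plus strand) are shown because they had the largest ratios. *Lamp3* (chr16:19706366-19706615, minus strand) and *Abca3* (chr17:24351773-24352022, plus strand) are shown as the expressed genes that hold the TEAD word. Each is written 5′ to 3′ on the strand of its gene and ends at the base before the start, with every match in capitals.

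Sftpb: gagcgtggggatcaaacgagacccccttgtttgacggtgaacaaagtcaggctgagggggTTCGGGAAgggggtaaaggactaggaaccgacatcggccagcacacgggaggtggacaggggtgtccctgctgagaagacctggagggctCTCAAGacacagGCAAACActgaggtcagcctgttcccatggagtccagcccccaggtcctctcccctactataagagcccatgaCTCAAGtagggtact
Sftpa1: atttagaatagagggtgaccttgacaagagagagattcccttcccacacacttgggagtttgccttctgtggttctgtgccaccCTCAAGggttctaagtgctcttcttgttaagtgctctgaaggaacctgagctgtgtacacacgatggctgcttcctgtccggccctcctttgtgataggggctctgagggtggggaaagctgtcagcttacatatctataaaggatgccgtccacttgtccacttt
Lamp3: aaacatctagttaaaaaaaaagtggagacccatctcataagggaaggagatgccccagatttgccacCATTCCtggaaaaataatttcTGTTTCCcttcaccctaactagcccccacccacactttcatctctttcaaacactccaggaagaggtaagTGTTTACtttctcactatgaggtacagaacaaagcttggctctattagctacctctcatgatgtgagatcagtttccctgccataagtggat
Abca3: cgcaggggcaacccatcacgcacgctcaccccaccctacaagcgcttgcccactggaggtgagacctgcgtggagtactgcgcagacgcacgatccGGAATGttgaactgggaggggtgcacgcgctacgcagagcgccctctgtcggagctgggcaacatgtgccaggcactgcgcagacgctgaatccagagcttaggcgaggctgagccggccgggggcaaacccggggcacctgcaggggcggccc

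In *Sftpb*, CTCAAG occurred 100 and 15 bases before the start, a forkhead word 88 bases before it and a C/EBP word 190 bases before it. *Sftpa1* held CTCAAG 166 bases before its start and none of the other words. Among the 7 promoters these were the 2 that held CTCAAG, beside 13.3% of all 32851 promoters. The TEAD word was found in *Lamp3* (183 bases before the start), *Abca3* (154) and *Slc34a2* (92), which is 3 of 7 promoters beside 12.6% of all. The forkhead word was found in *Sftpb* and *Lamp3* (17.8% of all promoters) and the C/EBP word in *Sftpb* and *Slc34a2* (36.8%). In *Slc34a2* the C/EBP match was TTGCGCAA, 48 bases before the start, which reads the same on both strands. The promoters of *Cebpa* and *Lpcat1* held none of the 4 words. No matches to different words overlapped.

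The flanking loci of these genes were near level. For each of the 7 expressed genes the nearest expressed locus on either side that did not overlap it was taken, 14 in all, at distances from 0.162 to 3993 kb. None (0) of the 14 passed 1.5-fold, and their log2 ratios ran from -0.49 to 0.05. Of all expressed loci, 4.44% were higher and 3.3% lower by that fold, so this count does not set the flanking loci apart. *D330041H03Rik*, which overlaps *Abca3* and is not among the 14, had a log2 ratio of 0.97, close to that of *Abca3*. The procollagen protease gene *Bmp1* lies 0.682 kb from *Sftpc*, with 65.4 FPKM in controls and 58.1 FPKM in mutants. On its other side, 6.74 kb away, *Lgi3* had 9.92 and 7.02 FPKM. The nearest locus after *Sftpb*, 4.25 kb away, is *Usp39*, a splicing gene with 35.6 and 30.6 FPKM. The nearest expressed locus before *Cebpa* is *Cebpg*, of the same family, at 19.9 and 17.2 FPKM. *Rnps1*, 0.162 kb after *Abca3*, had 164.2 and 152.4 FPKM.

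**Figure D4:**
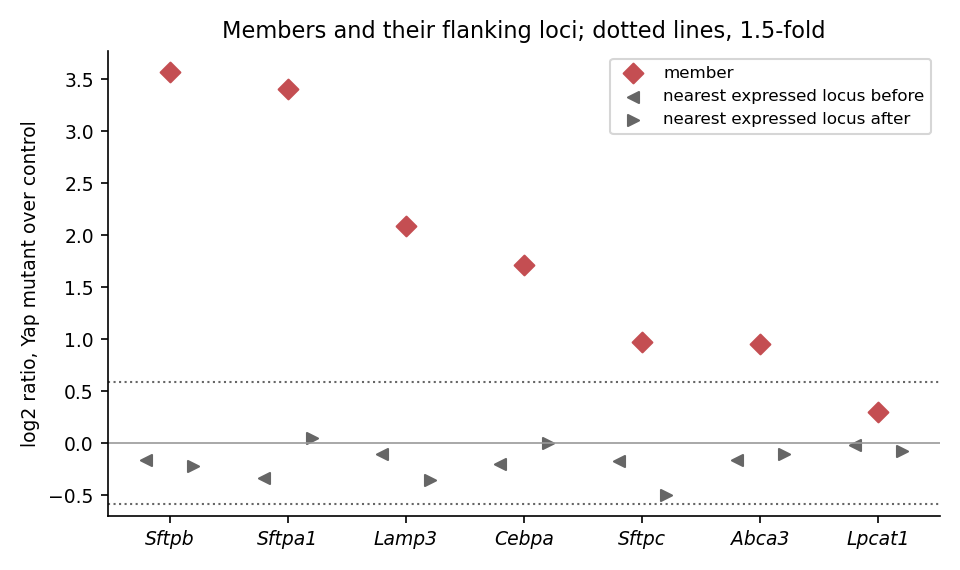
log2 ratio of *Yap* mutant over control values for the 7 expressed genes (diamonds) and for the nearest expressed locus on each side that did not overlap it (triangles). The genes lie between 0.30 and 3.57, and their 14 flanking loci lie between -0.49 and 0.05.

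Other genes of type 2 cells were mixed. Of 16 further type 2 genes, 14 had a locus and 9 were expressed, of which 4 were higher, 1 was lower and 4 were within 1.5-fold, with a median log2 ratio of 0.46. *Ctsh*, which encodes cathepsin H and like *Napsa* takes part in the processing of surfactant protein B, had 3.14 FPKM in controls and 8.23 FPKM in mutants (log2 ratio 1.36). *Cd36*, a fatty acid carrier also present in endothelium and macrophages, had 2.09 and 5.73 FPKM (1.41), and *Egfl6* had 9.82 and 23.7 FPKM (1.26). *Bex2* was just past the line (0.59). *Muc1*, a mucin on the apical face of epithelial cells, was lower, at 2.04 and 0.587 FPKM (-1.64). *Fabp5*, the most abundant of the list, had 175.1 and 166.1 FPKM.

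The wider machinery of surfactant was near level in the deposited values. Of 21 genes for phosphatidylcholine and fatty acid synthesis and turnover, 19 were expressed, and 0 of them passed 1.5-fold in either direction. Their log2 ratios ran from -0.36 to 0.29 with a median of 0.02. The most abundant, *Scd2*, a fatty acid desaturase, had 248.8 FPKM in controls and 199.5 FPKM in mutants, and the antioxidant phospholipase gene *Prdx6* had 115.0 and 116.3 FPKM. Of 20 genes for protein processing, lamellar body formation and secretion, all 20 were expressed, *Ctsh* was higher, and *Rab38*, a small GTPase of lysosome-related organelles, was lower, at 2.56 and 1.31 FPKM (log2 ratio -0.92). The median of that list was 0.02. Of all expressed loci, 4.44% were higher and 3.3% lower, so the counts of these lists do not set them apart. In these lists *Nedd4*, a ubiquitin ligase, was the most abundant gene, at 525.1 and 521.3 FPKM.

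Several known activators of surfactant genes were lower in the deposited values, as were many general epithelial genes. Of 17 expressed genes in a list of such regulators, 4 were lower, 2 were higher and 11 were within 1.5-fold. The median log2 ratio was -0.13 as deposited but 0.41 when taken against the median of the general epithelium list below. *Nkx2-1*, the factor that defines the lung epithelium, had 61.9 FPKM in controls and 35.9 FPKM in mutants (-0.78). The forkhead genes *Foxa1* (23.7 and 13.5 FPKM) and *Foxa2* (19.6 and 10.3 FPKM) had log2 ratios of -0.81 and -0.92. *Nkx2-1*, *Foxa1* and *Foxa2* thus lay within 1.5-fold of the general epithelium median of -0.54. *Etv5*, an ETS factor downstream of FGF that is needed by type 2 cells, had 86.9 and 36.3 FPKM (-1.26), while its relative *Etv4* was higher, at 13.0 and 21.1 FPKM (0.69). *Gata6*, which is active in lung epithelium and in heart, had 35.0 and 56.0 FPKM (0.67). For every FPKM of *Nkx2-1* there was 0.0735 FPKM of *Sftpb* in control lungs and 1.54 FPKM in the mutants. For *Sftpc* the same quotient was 0.459 and 1.56.

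**Figure D5:**
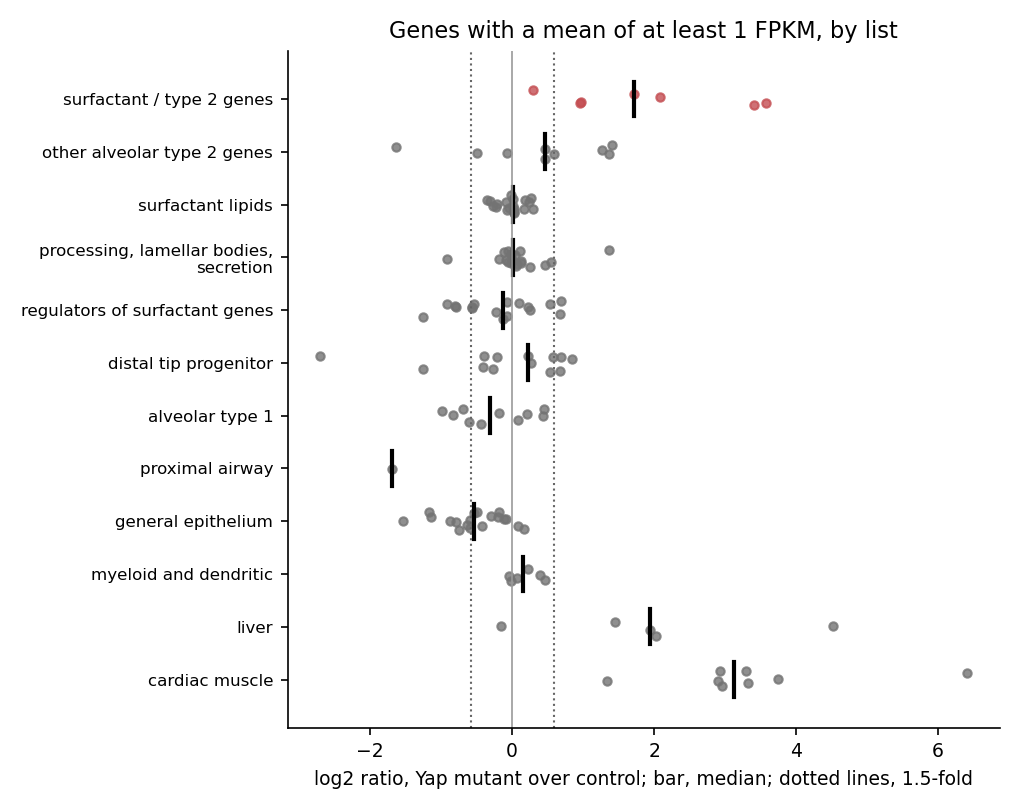
log2 ratio of *Yap* mutant over control values for each expressed gene, grouped by list, with a black bar at the median and dotted lines at 1.5-fold. The surfactant and type 2 genes described here (red, median 1.71) lie to the right of the general epithelium list (median -0.54), and the cardiac muscle (median 3.13) and liver (median 1.94) lists also lie to the right.

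General epithelial genes pointed the other way from the surfactant genes. Of 19 expressed genes of a general epithelium list, 9 were lower and 0 higher, and the median log2 ratio was -0.54. *Cldn18*, a lung claudin, had 12.8 and 4.35 FPKM (-1.53), and *Esrp2*, an epithelial splicing regulator, had 9.07 and 3.99 FPKM (-1.17). *Sftpb* stood at 0.0607 of the level of *Epcam*, a general epithelial gene, in control lungs and at 0.992 of it in the mutants. When log2 ratios were taken against that epithelial median, they were 4.11 for *Sftpb*, 1.51 for *Sftpc* and 0.83 for *Lpcat1*.

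Markers of the other epithelial fates were lower or mixed in the deposited values. For alveolar type 1 cells, which make up the gas exchange surface, 10 of 12 genes were expressed. Of these, 4 were lower and 0 higher, beside 3.3% and 4.44% of all expressed loci. The median log2 ratio was -0.31, or 0.22 against the epithelial median. The lower genes were *Igfbp2* (97.0 and 48.7 FPKM), *Akap5* (5.49 and 3.03 FPKM), *Rtkn2* (3.78 and 2.30 FPKM) and *Gprc5a* (9.74 and 6.37 FPKM). All 4 lay within 1.5-fold of the general epithelium median of -0.54. Of 9 proximal airway genes only *Sox2* was expressed, and it was lower, at 9.65 and 2.91 FPKM (-1.69). Among 13 distal tip progenitor genes, 3 were higher and 2 were lower, with a median of 0.23. *Id2*, a tip factor, had 117.7 and 211.0 FPKM (0.84), *Sox9*, chosen for mention after its values were seen, had 23.7 and 20.4 FPKM (-0.22), and *Shh*, whose locus carries Cre in the mutants, had 15.6 and 2.31 FPKM (-2.71).

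Some values of other tissues moved with these genes. The cardiac muscle list was higher at 8 of 8 genes (summed FPKM 119.5 in control and 878.7 in mutant lungs, with none listed at 0), and its median log2 ratio was 3.13. Of 10 liver genes, 5 were expressed and 4 of these were higher, *Ttr*, *Afp*, *Trf* and *Apoa1*, with a list sum of 14.4 and 60.6 FPKM. *Ttr*, and *Nppa* and *Myh7* of the cardiac list, reached the mean through their mutant values alone. Their control values were 0.492, 0.581 and 0.316 FPKM. *Alb*, the defining liver gene, was near level at 1.28 and 1.14 FPKM, and *Fga*, *Fgb* and *Ahsg* were at most 0.153 FPKM in both genotypes. Myeloid and dendritic markers passed 1.5-fold at 0 of 6 expressed genes, with a list sum of 32.6 and 35.3 FPKM. The Y-linked genes *Ddx3y*, *Eif2s3y*, *Kdm5d* and *Uty* were at most 0.0163 FPKM in controls and between 4.61 and 16.5 FPKM in mutants, and *Xist*, which is expressed from the inactive X, was at 97.0 and 50.4 FPKM. Sex and genotype cannot be told apart in these pooled values, and the part of cardiac and liver RNA in those of the surfactant genes was not tested. *Yap1* itself had a log2 ratio of -0.21 over the whole locus, in RNA that includes mesenchyme.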

How the data were processed

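Whole-lung RNA of 3 control and 3 *Yap* mutant samples at 12.5 *dpc* was measured. The authors made stranded paired-end libraries, and the submitters' processing notes name TopHat, Cuffdiff and mm10, with no versions. The deposited values were read as FPKM from the Cuffdiff layout, since the header names no unit, and the authors pooled them to 1 value per genotype. The sources used here do not say whether libraries came from separate embryos. Depth and spread per library are unknown. The tables also hold the authors' fold changes and p-values, which were not used. A linear model was planned for values per library and was not run. No column belonged to other samples.

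Ratios were log2((mutant + 0.1)/(control + 0.1)) FPKM, which understates the change of low genes, and calls needed a 1.5-fold difference and a mean FPKM of 1 or more. The call was also run on simulated data, in which the changed loci were set past 1.5-fold without noise. That run could only check the code, and it says nothing of the spread between libraries. Locus starts had 1 added. The fragment estimate used the median of FPKM times transcript kilobases below 0.03, over loci under 0.05 FPKM whose gene has a single GENCODE M21 transcript (0.0206 in control and 0.0209 in mutant lungs), and the longest coding transcript. It is rough and covers no spread between libraries. The estimate, the limit on control values alone and the sex-linked list were added after the data were seen. The genes and lists were chosen with earlier results of these data known. All 10 genes are named, and from each list at most the 6 largest ratios past 1.5-fold and the 2 highest means. A gene of the proximal airway list is not reported here and was left out of its counts. Other genes named, such as *Epcam*, *Sox9*, *Alb*, *Fga*, *Fgb* and *Ahsg*, were chosen after their values were seen. Python 3.11.15, numpy 2.4.6, pandas 2.3.3 and matplotlib 3.10.9 were used. The alternatives were other pseudocounts, filters, folds and scalings, the second deposited table and loci with a single symbol.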

Additional observations from a re-analysis of the deposited data

How the results depend on the processing

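No paired analysis was possible because each genotype has a single pooled value, and for the same reason no replicate could be left out. The count of surfactant and type 2 genes at least 1.5-fold higher was 6, and it stayed within 1.5 times of that under every alternative run, from 4 at 2-fold to 7 against the epithelial median. None (0) was lower under any alternative. Their median log2 ratio was 1.71 and became 1.06 with a pseudocount of 1 FPKM. Without the filter on low values, the median of the proximal airway list was -0.025 in place of -1.69 and that of the liver list was 0.59. With 0.01 FPKM as pseudocount the log2 ratio was 5.49 for *Slc34a2*. That of *Sftpd* also moved, but it rests on about 1 fragment in mutants, so it is not given. The 7 of these genes listed in the second deposited table had the same values there. Of 244 recomputed values 237 moved by no more than 1.5-fold, and no value past 1.5-fold changed sign. Part of that tally was fixed beforehand and does not measure robustness. Taking ratios against the epithelial median of -0.54 shifts each by less than 1.5-fold, and centring on all loci shifts them by only 0.006. The second table could not move the values of the 7 genes it shares. Against the epithelial median, the medians of the regulators and of the type 1 list turned from -0.13 to 0.41 and from -0.31 to 0.22. The medians of the myeloid, lipid and processing lists were as low as -0.017, -0.002 and -0.008 under other filters. They were 0.68, 0.55 and 0.55 against the epithelial median. The missing spread between libraries limits all of these values, and low fragment numbers limit those of *Slc34a2*, *Napsa* and *Sftpd*.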

Other observations

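Relatives of the surfactant and type 2 genes were near level. Of 30 genes from the same families, 20 were expressed, of which 1 was higher and 0 were lower, with a median log2 ratio of 0.14. These counts were near the shares of all expressed loci, 4.44% higher and 3.3% lower. The higher gene was *Colec11*, a collectin like SP-A and SP-D, at 0.801 FPKM in controls and 1.68 FPKM in mutants, so that it reached the mean through its mutant value alone. *Colec10*, another collectin, named after its values were seen, was at 1.24 and 0.181 FPKM (log2 ratio -2.25) and fell outside these counts because its mean was under 1 FPKM. *Psap*, which encodes the saposin precursor and shares the saposin fold of surfactant protein B, had a log2 ratio of 0.10, and *Itm2a*, which shares the BRICHOS domain of the SP-C precursor, had 157.9 and 197.9 FPKM.

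In the mesenchyme list, *Fgf10*, the growth factor that draws out lung buds, was higher at 10.4 and 26.6 FPKM (log2 ratio 1.34), while *Foxf1* (83.5 and 41.6 FPKM) and *Wnt2* (46.5 and 27.3 FPKM) were lower. The endothelium list was within 1.5-fold at all 6 genes, with *Pecam1* at 29.6 and 33.9 FPKM. Of 9 thyroid and stomach genes, 3 were expressed and *Gata4* was higher, at 10.8 and 20.0 FPKM (0.88). *Barx1* (-0.32) and *Hhex* (0.53) were within 1.5-fold. The part of cardiac RNA in the *Gata4* value was not tested.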
